A study of Mus musculus with 21 samples.

Results

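The hematopoietic cytokine receptors described here are 9 genes chosen by name: Kit, Epor, Csf1r, Csf2ra, Csf2rb, Csf3r, Il3ra, Il6st and Lifr. All 9 were listed in both deposited expression tables, among 27968 genes of the sorted-cell table and 22899 genes of the coculture table. The study asked how closely blood-forming cells made from mouse pluripotent stem cells (PSCs) resemble hematopoietic stem and progenitor cells taken from the animal. PSC-derived colonies from a 3D embryoid body induction were seeded on OP9 stromal cells (3D+OP9) or on 0.1% gelatin (3D+0.1% gelatin), and polyadenylated RNA was sequenced from 21 libraries, 3 in each of 7 groups.

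Total cells were collected from both cultures on day 5 (6 libraries). From the 3D+OP9 culture of the same day, D5-LSKCD201+ and D5-LSKCD201- cells were sorted, where LSK means lineage negative, Sca-1 positive and c-Kit positive, and CD201 is the endothelial protein C receptor encoded by Procr. The starting cells (mESC), maintained on feeder cells with LIF, were sorted on SSEA-1. The labels give these groups the 129/ola background (the study's methods name ES cells from both 129/ola and C57BL/6 mice), whereas by the labels FL-LSKCD201+ (fetal liver at E12.5) and BM-LSKCD201+ (bone marrow at 6 to 8 weeks of age) are C57BL/6. Strain and origin therefore cannot be told apart when PSC-derived cells are set against cells from the animal. No transgene or knockout is named for any group. The OP9 coculture medium contained SCF, IL-3 and Flt3 ligand, which are ligands of Kit, Il3ra and Flt3, and the OP9 cells had been treated with mitomycin C; OP9 is a stromal line from the skull of mice that lack functional M-CSF, the ligand of Csf1r. The study calls the 3 libraries of each sorted group biological replicates, but the labels do not say whether those of any group came from separate cultures or animals. Every p-value below measures only the spread between these libraries, part of which may be technical.

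Cytokine receptors of blood cells belong to a few families. Kit and Csf1r are receptor tyrosine kinases, which phosphorylate themselves when stem cell factor or M-CSF (also IL-34) binds. Epor and Csf3r bind erythropoietin and G-CSF as homodimers and signal through associated JAK kinases. Csf2ra and Il3ra are the ligand-specific chains for GM-CSF and IL-3, and both can signal through the common beta chain Csf2rb. Mice carry a near-identical second beta chain, Csf2rb2, that serves IL-3 alone, so reads may be split between the copies and levels of both are given as uncertain. Il6st (gp130) is the shared signaling chain of the IL-6 family, and it pairs with Lifr to bind LIF, the factor that holds mouse ES cells in self-renewal through STAT3.

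The stretch just before the transcription start was read for the members from the RefSeq annotation of GRCm38.p6, as 9 windows of 250 bases for 7 of the 9 genes (Kit and Lifr have a pair of starts each). Of these, 3 are printed because the genes set the groups apart in different ways: Epor was highest in fetal liver, Csf2ra was high in both populations from the animal, and Il6st was high in PSC-derived cells. Each sequence runs 5′ to 3′ on the strand of the gene. Capitals mark matches on either strand to 4 short motifs. They are AGATAA for the family of Gata1 and Gata2, GAGGAA for the ETS factor PU.1, TGTGGT for the RUNX family and CACCC for the KLF family.
Epor, chr9:21963577-21963826, minus strand: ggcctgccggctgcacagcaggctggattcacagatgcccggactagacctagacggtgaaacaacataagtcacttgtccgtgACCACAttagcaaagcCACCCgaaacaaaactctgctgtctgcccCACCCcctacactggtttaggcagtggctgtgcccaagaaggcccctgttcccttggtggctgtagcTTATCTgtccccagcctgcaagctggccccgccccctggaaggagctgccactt
Csf2ra, chr19:61228419-61228668, minus strand: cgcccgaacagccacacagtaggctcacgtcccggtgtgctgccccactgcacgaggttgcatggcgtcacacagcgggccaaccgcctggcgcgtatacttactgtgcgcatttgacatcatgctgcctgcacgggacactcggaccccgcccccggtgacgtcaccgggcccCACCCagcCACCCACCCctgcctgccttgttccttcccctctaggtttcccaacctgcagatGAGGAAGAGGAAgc
Il6st, chr13:112463820-112464069, plus strand: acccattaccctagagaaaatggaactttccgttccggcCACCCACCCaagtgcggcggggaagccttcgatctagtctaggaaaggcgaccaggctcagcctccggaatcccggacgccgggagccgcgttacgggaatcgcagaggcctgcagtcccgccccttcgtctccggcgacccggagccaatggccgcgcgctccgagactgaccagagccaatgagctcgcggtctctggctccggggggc
The Epor window held 1 match to the GATA letters, 1 to the RUNX letters and 2 to the KLF letters. The Csf2ra window held 2 matches to the PU.1 letters, side by side next to the start, and 3 to the KLF letters, of which a pair overlap by sharing letters. The Il6st window held 2 KLF matches, which also overlap, and none of the other letters. Of 32851 such windows in the table, 9.99% held the GATA letters, 23.3% those of PU.1, 14% those of RUNX and 52% those of KLF, so the KLF letters are common and the GATA letters the rarest of the 4. Among the windows not printed, those of Kit and Csf3r held 1 PU.1 match each, and only the Epor window held the GATA or RUNX letters. A match is a description of the letters, not a binding site.

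Expression is given as FPKM, fragments scaled by transcript length and by the size of the library, so levels are per length and can be compared between genes within a table. The tables were normalized separately and were never compared with each other. Summed FPKM ran from 483263 to 620332 per library and 11311 to 12340 genes were above 1 FPKM, and the sequencing depth is unknown. Differences are given as log2 differences of FPKM + 1, which understates the change of low genes, and a gene is called when the limma test gave an adjusted p below 0.05 with a log2 difference of 1 or more in either direction. In some groups a pair of libraries lay closer than the other pairs: in FL-LSKCD201+ the SD of the log2 difference over genes was 0.144 between libraries 2 and 3 but 0.433 to 0.453 for the pairs with library 1. The closest pair also stood apart in BM-LSKCD201+ (0.138 for libraries 2 and 3, against 0.333 to 0.337). The same held for D5-LSKCD201- (0.16 for libraries 1 and 3, against 0.4 to 0.407) and 3D+OP9 (0.168 for libraries 1 and 2, against 0.414 to 0.426). The sort was visible in the marker genes. D5-LSKCD201+ had 59.7 ± 2.03 FPKM of Procr (SD, n = 3), D5-LSKCD201- had 3.48 ± 0.411, and Ly6a (Sca-1) was 61.3 ± 3.37 and 32.6 ± 1.12. However, Ptprc (CD45, carried by nearly all white blood cells) was at 0.305 to 0.602 FPKM in the CD201+ and 0.419 to 0.935 in the CD201- cells of day 5, against 38.4 to 52.1 for FL-LSKCD201+ and 64.3 to 71.6 for BM-LSKCD201+.

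The 9 receptors together had a summed level of 25.7 to 27.4 FPKM in mESC, 43.7 to 55.6 in D5-LSKCD201-, 104.7 to 108.4 in D5-LSKCD201+, 144.5 to 194.7 in FL-LSKCD201+ and 212.2 to 218.3 in BM-LSKCD201+, with no overlap between groups; this sum was not tested. That order rests on Kit, a gene of the LSK gate. Without it the other 8 members summed to 104.5 to 126.6 FPKM in FL-LSKCD201+, above the 95.3 to 98.3 of BM-LSKCD201+, and mESC (19 to 19.9) and D5-LSKCD201- (19.9 to 24.2) met. What made up the sum also differed. In mESC the LIF receptor chains Lifr and Il6st held 28.3% and 23.1% of it and Kit 25.7%. In D5-LSKCD201+ Kit held 41.6%, Epor and Csf2rb 16.4% each and Csf3r 0.852%. In BM-LSKCD201+ Kit held 54.9%, Csf3r 19.6% and Csf2ra 16.7%, while Epor held 0.815% and Lifr 0.0855%. FL-LSKCD201+ was the group with large shares of both Kit (31%) and Epor (27.6%).

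**Figure D1:**
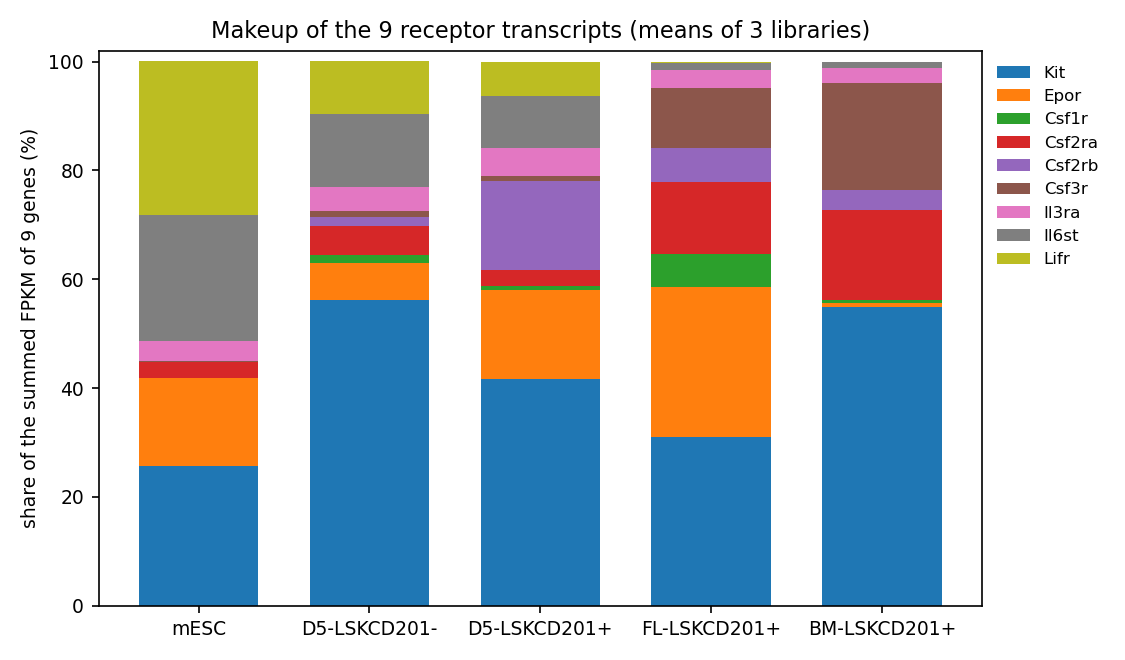
Stacked bars give, for each sorted group, the mean share (%, n = 3 libraries) that each of the 9 receptor genes takes of their summed FPKM. The bars show Lifr and Il6st filling over 51% in mESC and under 2% in FL-LSKCD201+ and BM-LSKCD201+, and Csf3r with Csf2ra visible mainly in the groups from the animal.

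Kit, the receptor of stem cell factor (chromosome 5, 75574916 to 75656722, plus strand), was one of the genes the LSK gate selects, so its presence in the LSK groups is a property of the sort. BM-LSKCD201+ had 118.9, 120 and 116.9 FPKM and FL-LSKCD201+ 68.1, 40 and 45.5, followed by 47.8, 42.3 and 43.4 in D5-LSKCD201+, 31, 23.8 and 31.5 in their CD201- counterpart, and 5.87, 7.6 and 6.89 in mESC. Bone marrow was highest, mESC lowest, and fetal liver and D5-LSKCD201+ overlapped. The step from BM-LSKCD201+ to FL-LSKCD201+ was 1.23 on the log2 scale (adjusted p = 0.00112), and that from D5-LSKCD201- to mESC was 1.93 (2.5e-05). D5-LSKCD201+ and FL-LSKCD201+ did not differ beyond their spread: the difference was -0.16 (95% confidence interval -0.62 to 0.29, adjusted p = 0.463), and it became 0.06 without FL-LSKCD201+ library 1, whose 68.1 FPKM lay apart from the others. Between the D5 populations Kit was higher in CD201+ cells by 0.62 (SE 0.12, adjusted p = 0.00233), under the fold required for a call. Germ cell markers, whose cells also carry Kit, went the other way: 7 of 7 were called lower in D5-LSKCD201+, with sums of 1.58 to 1.91 FPKM against 127.3 to 134.7 in D5-LSKCD201-, and their part in the Kit values was not tested. Mast cell markers summed to 76.7 FPKM in FL-LSKCD201+ library 1 and to 48.3 and 51.8 in libraries 2 and 3. In BM-LSKCD201+, where Kit was highest, they summed to 3.77 to 4.01. The part of mast cells in the Kit values was not tested either.

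**Figure D2:**
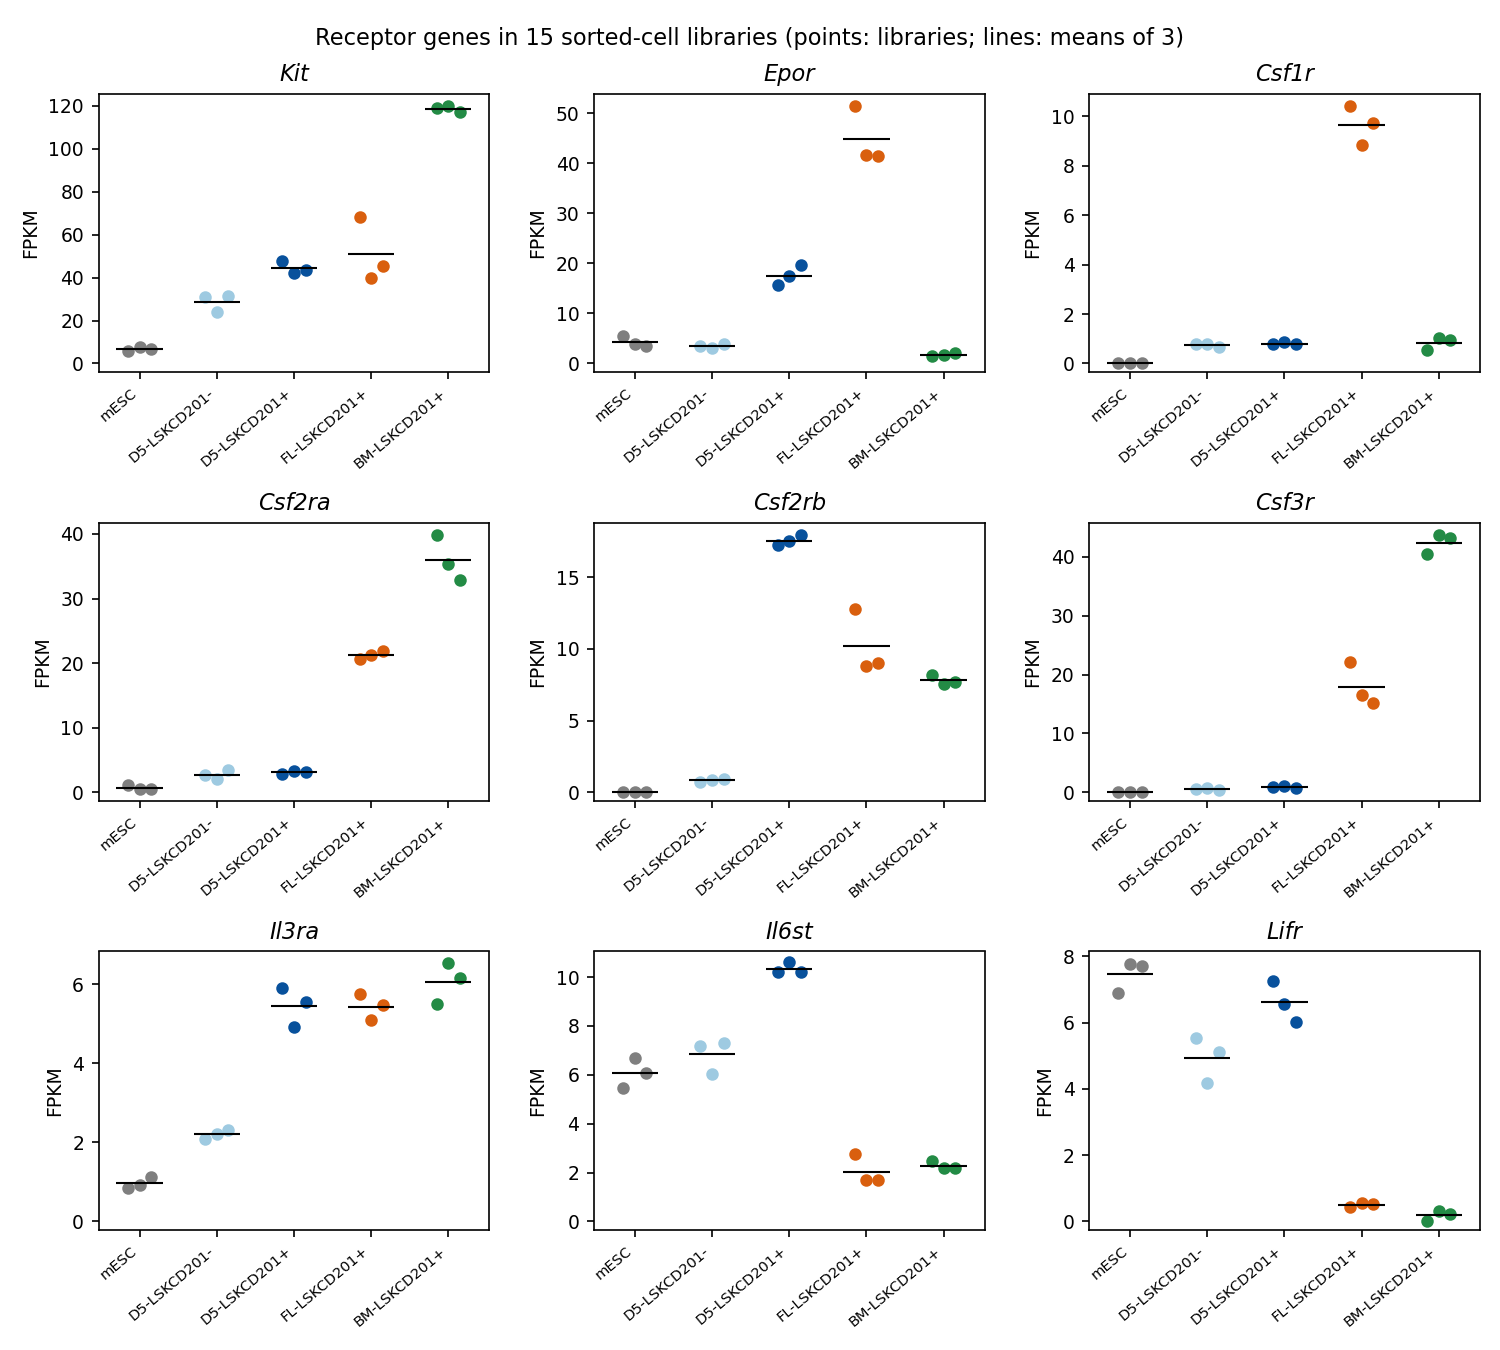
Each panel plots 1 receptor gene, with FPKM on a linear axis against the 5 sorted groups; points are libraries and lines are means of 3. Epor and Csf1r stand out in FL-LSKCD201+, Csf2ra and Csf3r in FL-LSKCD201+ and BM-LSKCD201+, Csf2rb in D5-LSKCD201+, and Lifr and Il6st in mESC and the D5 groups.

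Epor, the erythropoietin receptor (chromosome 9, 21958897 to 21963506, minus strand), differed between each pair of LSKCD201+ populations. It was at 51.5, 41.6 and 41.5 FPKM for FL-LSKCD201+, 15.6, 17.4 and 19.7 for D5-LSKCD201+, 5.44, 3.82 and 3.52 for mESC, 3.54, 3.03 and 3.95 for D5-LSKCD201-, and 1.51, 1.66 and 2.1 for BM-LSKCD201+. Fetal liver exceeded D5-LSKCD201+, and D5-LSKCD201+ exceeded each of the other 3 groups, without overlap. Only mESC and D5-LSKCD201- overlapped (difference -0.21 for D5-LSKCD201-, interval -0.58 to 0.17, adjusted p = 0.299). FL-LSKCD201+ was 4.06 log2 units above BM-LSKCD201+ (SE 0.13, adjusted p = 1.6e-06) and D5-LSKCD201+ was 2.75 above BM-LSKCD201+ (3.9e-07) but 1.3 below FL-LSKCD201+ (6.9e-05). Erythroid markers moved with Epor only in part: the summed level of 13 of them was 22791 to 46583.4 FPKM in FL-LSKCD201+, most of it adult globin such as Hbb-bs (8651.4 to 16577.6), and 317.7 to 410.1 in BM-LSKCD201+. In D5-LSKCD201+ the sum was 55.4 to 81, against 61.3 to 78.8 in mESC and 150.9 to 207.2 in D5-LSKCD201-. Tfrc, 1 of these markers, was at 10.8 FPKM in D5-LSKCD201+, 41.9 in mESC and 52.4 in D5-LSKCD201-. Epor was 2.04 log2 units higher in D5-LSKCD201+ than in D5-LSKCD201- (adjusted p = 6.1e-06). Within FL-LSKCD201+, library 1 had the highest Epor and the lowest erythroid sum, 22791. The part of erythroid cells in the Epor values of any group was not tested.

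Csf2rb, the signaling chain shared by IL-3 and GM-CSF (chromosome 15, 78325990 to 78351000, plus strand), was the member with the largest difference between the D5 populations. D5-LSKCD201+ had 17.2, 17.5 and 17.9 FPKM and D5-LSKCD201- 0.762, 0.84 and 0.932, a log2 difference of 3.33 (SE 0.09, adjusted p = 1.7e-07). FL-LSKCD201+ had 12.8, 8.81 and 9.01, BM-LSKCD201+ 8.21, 7.55 and 7.72, and mESC 0.0619, 0.00907 and 0.00922. D5-LSKCD201+ was thus the highest of the 5 groups, above fetal liver by 0.74 (adjusted p = 0.00243, under the fold for a call) and above bone marrow by 1.07 (2e-06). Fetal liver and bone marrow differed by 0.33 (interval -0.03 to 0.68, adjusted p = 0.103), and by 0.17 without FL-LSKCD201+ library 1 (adjusted p = 0.118). Its near copy Csf2rb2 lies beside it on the other strand (chromosome 15, 78282517 to 78305603). It was also highest in D5-LSKCD201+, while bone marrow and fetal liver stood in the other order than for Csf2rb, with 4.3, 4.43 and 4.16 FPKM for D5-LSKCD201+, 1.62, 2.56 and 1.9 for BM-LSKCD201+, 1.56, 1.67 and 1.38 for FL-LSKCD201+, and 0.108, 0.0972 and 0.0888 for D5-LSKCD201-. Csf2rb exceeded Csf2rb2 in every library of the 4 LSK groups, by 2.95 to 10.5 times.

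The ligand-specific partner chains did not follow Csf2rb. Csf2ra, the GM-CSF chain (chromosome 19, 61224402 to 61228418, minus strand), was at 39.8, 35.4 and 32.9 FPKM for BM-LSKCD201+ and 20.7, 21.3 and 21.9 for FL-LSKCD201+, but 2.87, 3.36 and 3.21 for D5-LSKCD201+, 2.68, 2.15 and 3.42 for D5-LSKCD201- and 1.13, 0.548 and 0.517 for mESC. Both populations from the animal lay above all PSC-derived cells, and the D5 populations overlapped (difference 0.16, interval -0.18 to 0.49, adjusted p = 0.355). D5-LSKCD201+ was 2.43 log2 units below FL-LSKCD201+ (adjusted p = 4.9e-07) and 3.16 below BM-LSKCD201+ (4.9e-08). FL-LSKCD201+ was lower than BM-LSKCD201+ by 0.73 (6.5e-04), without passing the fold.

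Il3ra, the IL-3 chain (chromosome 14, 14346495 to 14355490, plus strand), was the flattest member across LSKCD201+ cells. BM-LSKCD201+ measured 5.5, 6.54 and 6.15 FPKM, D5-LSKCD201+ 5.89, 4.91 and 5.54, FL-LSKCD201+ 5.74, 5.09 and 5.46, and D5-LSKCD201- 2.09, 2.21 and 2.31, and 0.836, 0.915 and 1.13 in mESC. The 3 LSKCD201+ populations overlapped one another, with differences of 0 between D5-LSKCD201+ and FL-LSKCD201+ (interval -0.22 to 0.22, adjusted p = 0.986) and -0.13 between D5-LSKCD201+ and BM-LSKCD201+ (interval -0.36 to 0.09, adjusted p = 0.232). D5-LSKCD201- was lower than D5-LSKCD201+ by 1.01 (SE 0.1, adjusted p = 8.3e-05), a call that sat on the threshold: the difference was 0.96, 1 (just under) and 0.98 without D5-LSKCD201+ library 1, D5-LSKCD201+ library 3 or D5-LSKCD201- library 1.

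Set against each other, the chains gave opposite ratios. Csf2ra exceeded Csf2rb by 4.26 to 4.84 times in BM-LSKCD201+ and 1.62 to 2.43 times in FL-LSKCD201+, whereas it was 0.167 to 0.192 of Csf2rb in D5-LSKCD201+ and 2.56 to 3.67 times Csf2rb in D5-LSKCD201-. Il3ra was 0.28 to 0.343 of Csf2rb in D5-LSKCD201+, 0.449 to 0.606 in FL-LSKCD201+, 0.67 to 0.866 in BM-LSKCD201+ and 2.48 to 2.74 in D5-LSKCD201-. D5-LSKCD201+ was the only LSK group whose libraries all had more Csf2rb than Csf2ra. These ratios are descriptions of transcript levels and were not tested.

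**Figure D3:**
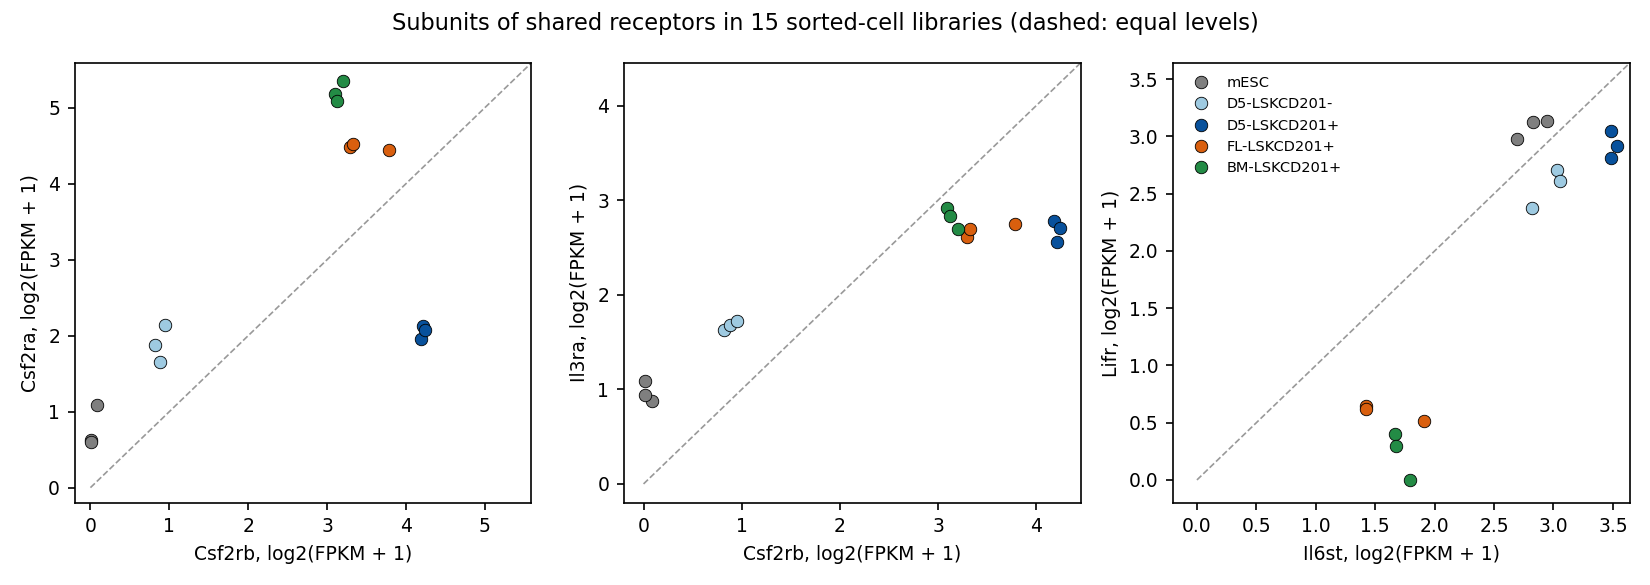
Each point is 1 of 15 sorted-cell libraries, coloured by group, with the level of a ligand-specific or partner chain on the vertical axis and that of its shared chain on the horizontal axis, both as log2(FPKM + 1). D5-LSKCD201+ lies far below the line of equal levels for Csf2ra against Csf2rb, while FL-LSKCD201+ and BM-LSKCD201+ lie above it; for Lifr against Il6st, only mESC lies above the line.

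Csf3r, the G-CSF receptor of the granulocyte line (chromosome 4, 126024550 to 126044440, plus strand), was the member with the largest gap between PSC-derived and animal-derived cells. BM-LSKCD201+ had 40.4, 43.6 and 43.1 FPKM, FL-LSKCD201+ 22.2, 16.6 and 15.1, D5-LSKCD201+ 0.845, 1.17 and 0.705, D5-LSKCD201- 0.576, 0.699 and 0.479, and mESC 0.0332, 0.0557 and 0.0531. No group overlapped another in that order. D5-LSKCD201+ was 3.3 log2 units below FL-LSKCD201+ (SE 0.16, adjusted p = 3.1e-06) and 4.51 below BM-LSKCD201+ (SE 0.1, 1.6e-08), whereas the D5 populations differed by 0.26 (interval -0.01 to 0.53, adjusted p = 0.0793). Myeloid markers were low in the D5 cells too. The summed level of 12 of them was 14.4 to 16.4 FPKM (CD201+) and 24.5 to 26.6 (CD201-), against 2799.4 to 3491.5 in FL-LSKCD201+ and 835.2 to 1004.1 in BM-LSKCD201+. Fetal liver thus had the higher myeloid sum but the lower Csf3r, by 1.21 log2 units (adjusted p = 3.7e-04). The part of myeloid cells in these values was not tested.

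Csf1r, the M-CSF receptor of monocytes and macrophages, was high in no group but FL-LSKCD201+. It was at 10.4, 8.83 and 9.71 FPKM there, 0.529, 1.02 and 0.934 in BM-LSKCD201+, 0.768, 0.85 and 0.784 in the CD201+ cells of day 5, 0.79, 0.787 and 0.655 in their CD201- counterpart, and it was listed at 0 in all 3 mESC libraries. Fetal liver lay above all others, and the last 3 LSK groups overlapped. FL-LSKCD201+ exceeded BM-LSKCD201+ by 2.55 log2 units (adjusted p = 1.4e-05) and D5-LSKCD201+ by 2.56 (6.2e-07), while D5-LSKCD201+ and BM-LSKCD201+ differed by -0.01 (interval -0.3 to 0.28, adjusted p = 0.931). The interval given for Csf1r in the table is the same as that of Hmgxb3, an overlapping gene on the other strand, and the sources used here do not state whether counting used strand. Hmgxb3 was at 7.89 to 8.28 FPKM in mESC, where Csf1r is listed at 0, and at 2.83 to 4.76 in FL-LSKCD201+, where Csf1r was highest. Of 12 myeloid markers all were above 1 FPKM in FL-LSKCD201+ and 8 in BM-LSKCD201+, and their part in the Csf1r value was not tested.

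The IL-6 family chains had the reverse pattern, higher in PSC-derived than in animal-derived cells. Il6st (chromosome 13, 112464070 to 112510086, plus strand) was at 10.2, 10.6 and 10.2 FPKM for D5-LSKCD201+, 7.18, 6.04 and 7.31 for D5-LSKCD201-, 5.47, 6.69 and 6.09 for mESC, 2.46, 2.17 and 2.19 for BM-LSKCD201+ and 2.77, 1.68 and 1.68 for FL-LSKCD201+. D5-LSKCD201+ lay above every other library, D5-LSKCD201- overlapped mESC (difference 0.15, interval -0.12 to 0.41, adjusted p = 0.301), and fetal liver overlapped bone marrow (difference -0.12, interval -0.51 to 0.26, adjusted p = 0.549, but -0.29 and 0.0572 without FL-LSKCD201+ library 1). D5-LSKCD201+ exceeded FL-LSKCD201+ by 1.92 (SE 0.15, adjusted p = 2.6e-05) and BM-LSKCD201+ by 1.79 (SE 0.08, 4e-07).

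Lifr (chromosome 15, 7129559 to 7197489, plus strand) was highest in mESC, at 6.9, 7.76 and 7.72 FPKM, and D5-LSKCD201+ followed with 7.25, 6.55 and 6.03 and D5-LSKCD201- with 5.53, 4.19 and 5.12. FL-LSKCD201+ had 0.431, 0.563 and 0.535 and BM-LSKCD201+ 0, 0.323 and 0.231. The groups thus fell into a PSC-derived class near 4 to 8 FPKM and an animal-derived class under 0.6, with D5-LSKCD201+ and mESC overlapping (difference -0.15, interval -0.34 to 0.03, adjusted p = 0.107). D5-LSKCD201+ exceeded FL-LSKCD201+ by 2.33 (adjusted p = 1.3e-06) and BM-LSKCD201+ by 2.69 (7.2e-07). Lifr was 1.16 to 1.27 times Il6st in mESC, 0.591 to 0.713 of it for D5-LSKCD201+, 0.693 to 0.77 for D5-LSKCD201- and at most 0.335 in the groups from the animal. Pluripotent markers (9 genes) summed to 6838 to 7402.6 FPKM in mESC, 3753 to 4251.4 for D5-LSKCD201-, 24.5 to 32.8 for D5-LSKCD201+ and under 12 in the animal-derived groups. Endothelial markers (9 genes such as Pecam1, Kdr and Cdh5) were highest in D5-LSKCD201+, summing to 1982 to 2012 FPKM, against 124.3 to 129.9 for D5-LSKCD201-, 482.9 to 547.1 for FL-LSKCD201+ and 398.3 to 440.3 for BM-LSKCD201+. Stromal markers summed to 363.8 to 404.4 and 108.5 to 167.2 in the CD201+ and CD201- cells of day 5. Their sums were 39.8 to 45 in mESC, 18.9 to 22.6 in FL-LSKCD201+ and 7.55 to 8.51 in BM-LSKCD201+. Fn1 alone was at 257.6 against 59.6 FPKM in the D5 populations, while Col5a1, Fbln2 and Pdgfrb had lower means in D5-LSKCD201+. Of 12 stromal markers tested, 3 were called higher in D5-LSKCD201+ than in D5-LSKCD201- and 0 lower (10.8% and 13.9% of all genes). Megakaryocyte markers (8 genes) summed to 54.4 to 56.8 FPKM for D5-LSKCD201+ and 6.38 to 7.15 for D5-LSKCD201-. Their sums were 92 to 105.2 for FL-LSKCD201+ and 64.5 to 85.1 for BM-LSKCD201+. Most of the D5-LSKCD201+ sum was Itga2b (45.2 FPKM) and Vwf (6.85), while Gp1bb, Gp5, Gp9 and Ppbp were at most 0.142 each. In D5-LSKCD201+ 1 of 8 was called higher and 5 lower than in FL-LSKCD201+ (34.7% of all genes called). Against BM-LSKCD201+ 1 of 7 tested was higher and 4 lower (44.7%). The part of pluripotent, endothelial, stromal or megakaryocyte cells in the Il6st, Lifr and Csf2rb values of either D5 population was not tested.

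The comparisons were then read as counts over the 9 members, each beside the share of all tested genes that was called. Between D5-LSKCD201+ and D5-LSKCD201-, 3 of 9 members were higher (Csf2rb, Epor and Il3ra) and none was lower. Among all genes 24.7% were called, 10.8% higher and 13.9% lower (1475 and 1904 genes, but 1716 and 1599 after quantile normalization), and the median difference was 0.53 for the members and -0.12 for all genes. Another 3 members (Kit, Il6st and Lifr) had an adjusted p under 0.05 with differences of 0.62, 0.53 and 0.36.

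Against FL-LSKCD201+, 6 of 9 members were called in D5-LSKCD201+, where 34.7% of all genes were: Csf3r, Csf1r, Csf2ra and Epor lower, Lifr and Il6st higher. Against BM-LSKCD201+ it was 7 of 9, with 44.7% of all genes: Csf3r, Csf2ra and Kit lower, and Epor, Lifr, Il6st and Csf2rb higher. The comparisons share the D5-LSKCD201+ libraries. Set side by side, Csf3r and Csf2ra were lower and Lifr and Il6st higher than in either population, while Epor was lower than in fetal liver and higher than in bone marrow. D5-LSKCD201- gave 8 of 9 members called against FL-LSKCD201+ (2 higher and 6 lower, 37.3% of all genes) and 7 of 9 against BM-LSKCD201+ (2 higher and 5 lower, 49.3%). The Il3ra call in these comparisons was close to the threshold: against FL-LSKCD201+ the difference was -0.95 after quantile normalization and -0.98 and -0.97 without D5-LSKCD201- library 1 or FL-LSKCD201+ library 1, and against BM-LSKCD201+ it was -0.93 after quantile normalization, each of which ended the call.

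**Figure D4:**
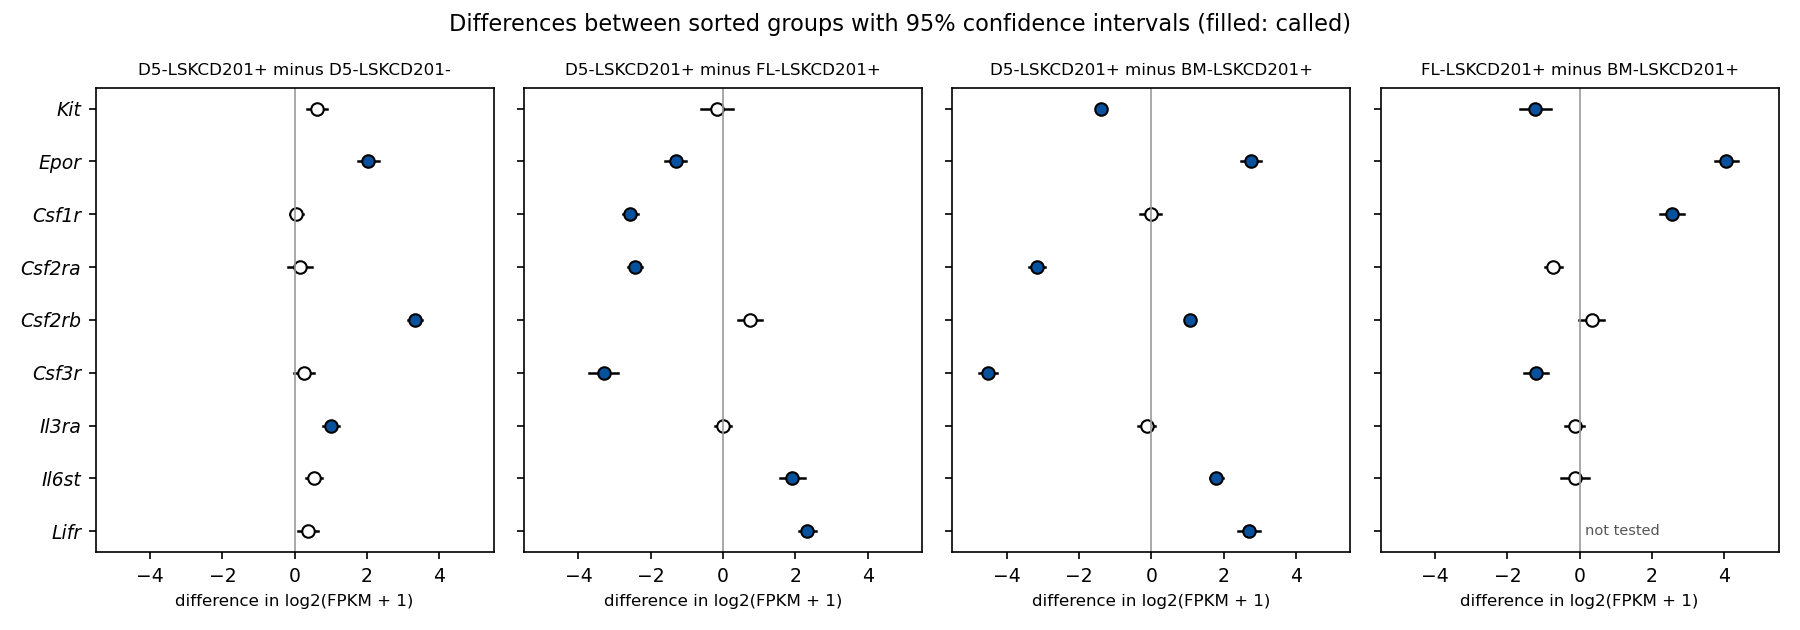
Points give the difference in log2(FPKM + 1) for each receptor gene in 4 comparisons and bars its 95% confidence interval; filled points are called and open points are not. D5-LSKCD201+ lies left of 0 for Csf3r and Csf2ra and right of 0 for Il6st and Lifr against both populations from the animal, and Epor changes side between them.

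Against mESC, D5-LSKCD201+ was higher in 5 of the 7 members that could be tested (Csf2rb 4.17, Kit 2.55, Epor 1.83, Il3ra 1.72 and Csf2ra 1.28), where 37.6% of all genes were called. Csf1r and Csf3r stayed under the required mean of 0.5 FPKM. D5-LSKCD201- was higher in 2 of 6 (Kit 1.93 and Csf2ra 1.12), where 14.3% of all genes were called, 1476 higher and 473 lower (1104 and 741 after quantile normalization). The Csf2ra difference was 0.99 without D5-LSKCD201- library 3 and 0.85 after quantile normalization, each of which ended its call. FL-LSKCD201+ differed in all 9 members, 7 higher and Il6st and Lifr lower (42.3% of all genes), and BM-LSKCD201+ in 7 of 8, 5 higher and Il6st and Lifr lower (53.1%). The LSK groups were sorted on c-Kit and mESC were not, so the gate and the cell type cannot be told apart in the Kit differences.

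Between FL-LSKCD201+ and BM-LSKCD201+, 4 of 8 members were called: Epor and Csf1r were higher in fetal liver, by 4.06 and 2.55, and Kit and Csf3r were lower, by -1.23 and -1.21. Of all genes 19.1% were called, 7.78% higher and 11.3% lower, and the members' median difference equalled that of all genes at -0.13. Without FL-LSKCD201+ library 1 the 4 differences were 3.95, 2.5, -1.45 and -1.36. Lifr was under the required mean in this comparison.

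In total cells of day 5, receptor transcripts were higher on OP9 than on gelatin for some members only. Of 8 members tested, 2 were called higher (Kit and Csf2rb) and none lower, where 2.62% of all genes were called, 2.11% higher and 0.509% lower, and the median difference was 0.44 for the members and 0.01 for all genes. In such mixed cells, a lower level can mean fewer expressing cells or less RNA per cell, and these cannot be told apart. Kit was at 13.3, 12.6 and 12.8 FPKM in 3D+OP9 and 8.11, 4.9 and 4.59 in 3D+0.1% gelatin, a difference of 1.05 (SE 0.19, adjusted p = 0.0173). Csf2rb was at 1.15, 1.43 and 0.86 in 3D+OP9 and 0.04, 0.01 and 0.06 in 3D+0.1% gelatin, a difference of 1.04 (SE 0.13, adjusted p = 0.00553), and its copy Csf2rb2 at 0.81, 0.92 and 0.82 against 0.1, 0 and 0.05. For both genes the cultures did not overlap. Overlap between the cultures is only a description of the libraries, since the share of all genes without overlap is not given here. Kit lost its call without any of 4 libraries (adjusted p = 0.072 without 3D+OP9 library 1, 0.0654 without 3D+OP9 library 2, and 0.0919 and 0.0568 without 3D+0.1% gelatin library 2 or 3), with differences of 0.92 to 1.07. Without 3D+OP9 library 1 or 2, Csf2rb fell under the required mean, so that no member was called.

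The IL-6 family chains were also higher on OP9, below the fold for a call. Lifr was at 8.13, 8.41 and 7.56 FPKM in 3D+OP9 and 3.55, 3.29 and 4.22 in 3D+0.1% gelatin (difference 0.95, SE 0.12, adjusted p = 0.00483), and Il6st at 14.7, 15.4 and 13.2 against 9.73, 10.6 and 11.2 (0.42, adjusted p = 0.0492). Lifr became a call with a pseudocount of 0.1 (1.11, adjusted p = 0.00475) and without 3D+0.1% gelatin library 3 (1.03, adjusted p = 0.0128). Neither overlapped between the cultures. Epor, at 4.52, 5.25 and 6.25 against 3.34, 3.76 and 3.69, did not overlap either but missed the threshold (0.46, interval 0.15 to 0.77, adjusted p = 0.0919). Il3ra was at 10.5, 10.8 and 10.4 against 10.6, 8.05 and 7.23 (0.28, interval -0.05 to 0.6, adjusted p = 0.285). Csf2ra, at 3.22, 3.23 and 5.18 against 4.88, 4 and 4.02, and Csf3r, at 0.99, 1.11 and 1.22 against 1.24, 1.16 and 0.89, overlapped, with differences of -0.14 (interval -0.55 to 0.27) and 0.01 (interval -0.28 to 0.3). Csf1r was at most 0.13 FPKM and was not tested. Stromal markers (13 genes) summed to 328.3 to 476.5 FPKM in 3D+OP9 and 210.2 to 330.7 in 3D+0.1% gelatin, endothelial markers to 124.2 to 148.9 and 28.2 to 42.4, and erythroid markers to 269.3 to 848.5 and 47.3 to 59.2. Megakaryocyte markers summed to 11.3 to 12.3 FPKM in 3D+OP9, where 2 of 8 were above 1 FPKM, and 1.01 to 1.2 in 3D+0.1% gelatin. Whether RNA of the OP9 cells themselves adds to Lifr, Il6st or Kit in 3D+OP9 was not tested.

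**Figure D5:**
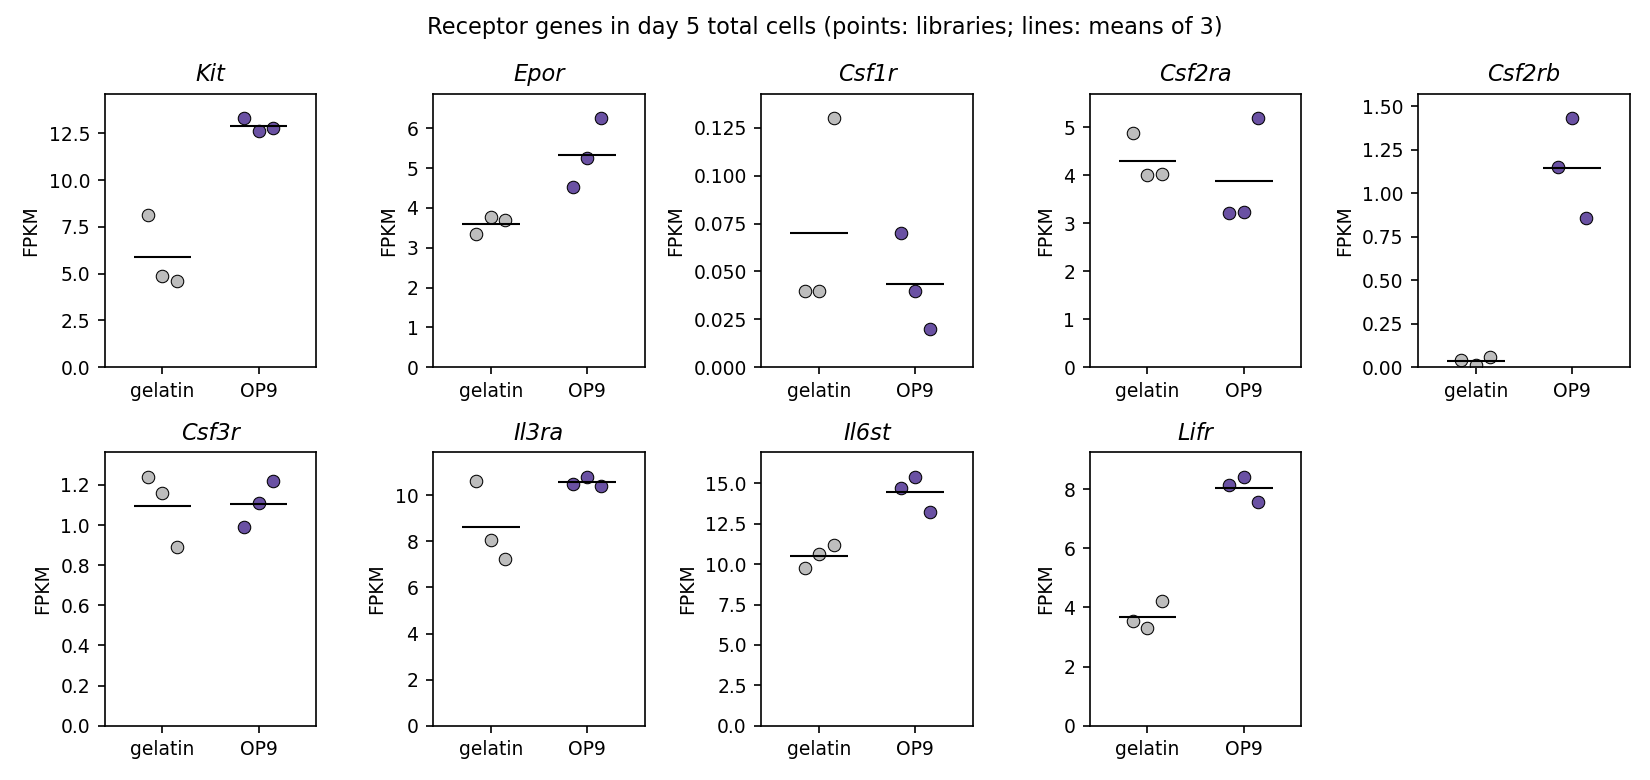
FPKM of each receptor gene in day 5 total cells on gelatin and on OP9, with 3 libraries (points) and their mean (line) per culture and a separate linear axis for each gene. Kit, Csf2rb, Lifr, Il6st and Epor do not overlap between the cultures, while Csf1r, Csf2ra, Csf3r and Il3ra do. This describes the points only, without the share of all genes that do not overlap.

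The rest of the pathway was read from lists of related genes. Among 28 other cytokine receptors, 16 could be tested between the D5 populations, with 8 higher and 2 lower in D5-LSKCD201+, where 10.8% and 13.9% of all genes were. The common gamma chain Il2rg (93.1 against 3.51 FPKM, difference 4.39, adjusted p = 6.8e-08) and Il27ra, a partner of Il6st (19.9 against 1.26, 3.21, 2.1e-07), rose most. Cntfr, the CNTF chain that works with Lifr and Il6st, and Pdgfra, a receptor tyrosine kinase of mesenchymal cells, fell by 1.18 and 1.1. Between fetal liver and bone marrow 2 of 17 were higher (Il9r 1.27 and Il13ra1 1.09) and 8 lower, with Flt3, the receptor tyrosine kinase of early lymphoid and myeloid progenitors (50.9 against 241.6 FPKM, -2.22), and Il12rb1 (-1.99) changing most, against 7.78% and 11.3% of all genes. In total cells, 18 were tested, and 1 was higher and 1 lower on OP9 (2.11% and 0.509% of all genes). The lower gene was Cntfr (13.2 against 28.2 FPKM, -1.04, adjusted p = 0.00215).

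Of 18 ligands few could be tested. In D5-LSKCD201+ 0 of 7 were higher and 2 lower than in D5-LSKCD201- (10.8% and 13.9% of all genes), cardiotrophin 1 (Ctf1, 2.98 against 9.89 FPKM, -1.45) and thrombopoietin (Thpo, 0.0786 against 1.24, -1.05). FL-LSKCD201+ had 1 of 6 higher than BM-LSKCD201+ (7.78% of all genes), Il6 (4.24 ± 3.3 against 0.143 ± 0.127 FPKM, 2.03, adjusted p = 0.00331), and 2 lower (11.3%), Clcf1 (-1.93) and oncostatin M (Osm, -1.65). All 3 of these are ligands of receptors that contain Il6st. On OP9 none of 9 ligands was called.

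The 23 signal transducers were all tested. In D5-LSKCD201+, 9 were higher and 3 lower than in D5-LSKCD201-, against a background of 10.8% and 13.9%. Lyn, a Src-family kinase (34.6 against 3.26 FPKM, 3.07), and Jak3, the kinase of the common gamma chain (68.1 against 14.8, 2.17), were highest, and the docking protein Gab1 (-1.33) was among the lower ones. Between fetal liver and bone marrow, 1 of 23 was higher in fetal liver and 3 lower, against 7.78% and 11.3% of all genes. Jak3 was among the lower ones (-1.41). On OP9, 3 of 23 were higher and none lower, against 2.11% and 0.509% of all genes, and the largest differences were those of Jak3 (16.4 against 3.37 FPKM, 1.98, adjusted p = 7.2e-04) and Stat3, the main STAT of Il6st (30.1 against 10.4, 1.46, 0.00276).

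Feedback inhibitors of the pathway were lower in FL-LSKCD201+ than in BM-LSKCD201+ for 4 of 16 tested and higher for none (11.3% and 7.78% of all genes). Socs3, which binds Il6st and Csf3r, was at 3.01 ± 0.0939 FPKM against 54.6 ± 7.42 in BM-LSKCD201+ (-3.79, adjusted p = 1e-06), followed by Usp18 (-2.08). D5-LSKCD201+ had 2 of 15 higher than D5-LSKCD201- (10.8% of all genes), the adaptor Sh2b3 that restrains Kit signaling (49.9 against 5.86 FPKM, 2.91) and Socs3 (18.2 against 7.57, 1.27), and 1 lower (13.9%), Socs2 (10.8 against 34.1, -1.58). On OP9 none of 16 was called. Among 15 genes known as STAT targets, 2 of 14 tested were higher in D5-LSKCD201+ than in D5-LSKCD201- (Myc 1.29 and Junb 1.05; 10.8% of all genes) and 4 lower (13.9%), led by the kinase Pim2 (-3.44) and the pluripotency factor Tfcp2l1 (-2.29). In FL-LSKCD201+, Ccnd1 (1.63) was the 1 gene higher than in BM-LSKCD201+ (7.78% of all genes) and 5 of 14 were lower (11.3%), led by Fos (-2.76) and Junb (-2.32). On OP9, where 2.11% of all genes were higher, Tfcp2l1 was the 1 of 15 (1.73, adjusted p = 0.00392). Several of these genes also respond to other signals.

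The 10 transcription factors known to control receptor genes moved in both directions. In D5-LSKCD201+ 5 of 10 were higher than in D5-LSKCD201- (10.8% of all genes), led by the ETS factor Fli1 (55.9 against 3.81 FPKM, 3.57) and Lyl1 (46.2 against 3.71, 3.34), and 4 lower (13.9%), led by Gata1 (0.406 against 4.56, -1.98) and Myb (-1.57). The GATA letters in the Epor window belong to both Gata1 and Gata2, and Gata2 was among the higher ones (21 against 3.21 FPKM, 2.42, adjusted p = 3.4e-05), so the pair moved in opposite directions. Fetal liver, with 7.78% of all genes higher and 11.3% lower than bone marrow, had the erythroid factors Klf1 (185.3 against 6.16 FPKM, 4.96) and Gata1 (41.3 against 1.39, 4.14) higher and the myeloid factor Cebpa (7.19 against 40.2, -2.34) lower. On OP9, 6 of 10 were higher and none lower than on gelatin, against 2.11% of all genes, led by Tal1 (10.7 against 1.63 FPKM, 2.19, adjusted p = 0.00279) and Gata1 (3.95 against 0.123, 2.13, 7.2e-04).

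The genes most like each receptor over the 15 sorted libraries were taken from 12923 genes by Pearson's r of log2(FPKM + 1). These values are descriptions across genes over libraries that share 5 groups, so a gene with the same group levels scores high. Csf3r was followed most closely by Cmtm7 (r = 0.9979) and Mctp1 (0.9974), Csf2rb by the endothelial genes Scarf1 (0.9943) and Egfl7 (0.9939), and Kit by Akr1c12 (0.9935) and Gramd1c (0.9919). Sept6 (0.994) was among the nearest to Csf2ra. Il6st followed the cortical actin and junction genes Cttn (0.9931) and Jup (0.9917), Lifr followed Cenpt (0.9921) and Cpt1c (0.9915), and Il3ra followed Tfec (0.992) and Rab8b (0.9904). Csf1r was nearest to Alg8 (0.9858) and Hp (0.9801). The DNA glycosylase Neil3 (0.9648) was among the nearest to Epor. Egfl7, which belonged to the endothelial markers above, was at 494.8 FPKM in D5-LSKCD201+, 286.2 in FL-LSKCD201+, 201.6 in BM-LSKCD201+, 53.8 in D5-LSKCD201- and 31.7 in mESC, the same order of groups as Csf2rb.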

How the data were processed

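Values were the FPKM that the authors deposited for each gene and library in 2 tables; per the study's methods, TRIzol RNA was made into VAHTS mRNA-seq v2 libraries and read as 150-bp paired ends, and the submitters' processing notes name HISAT2 2.0.5, StringTie 1.3.3 and Cuffdiff 1.3.0 and the builds GRCm38 and mm9. Strand use in counting is not given in the sources used here. Of 22899 genes listed for the coculture libraries 3578 were blank. For the sorted cells 27968 genes were listed, of which 27828 identifiers (99.5%) were in GENCODE M21 of GRCm38 and 27819 overlapped its positions. Groups came from the labels, and 0 columns of values were left unmapped. No counts were given, so no depth-based precision could be computed, and the number of libraries limits the precision.

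FPKM + 1 was taken to log2. Each of 11 pairwise comparisons used limma 3.58.1 with its trend option, two-sided, in R 4.3.3, over genes averaging 0.5 FPKM or more in the libraries compared, with Benjamini-Hochberg adjustment over all genes tested and intervals at 95%. The code was tested on simulated data. Tables and figures were made with Python 3.11.15, pandas 2.3.3 and matplotlib 3.10.9. The settings varied were the pseudocount (0.1), the filter (none, or 1 FPKM), the normalization (quantile), a replicate block, the adjusted p alone, 1 fit over 5 groups, each library left out in turn and, chosen after seeing the data, an average of the closest pair of libraries.

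The genes named were all 9 members, Csf2rb2, for each member the 2 genes with the highest r over 15 libraries, and of each pathway list the 2 called genes with the largest differences in each direction, with the sort markers Procr and Ly6a. Hmgxb3, Ptprc, Hbb-bs, Gata2 and the values given for Egfl7 were named after their values had been seen. Some genes that the rule names are not reported here. The members and lists were chosen with earlier results of these data known. Flt3l and Itgam, which stand on 2 rows of the sorted-cell table, were left out of the lists there. Labels give the groups the same replicate numbers; the deviations from group means of same-numbered libraries correlated over 0.1 for every number only between FL-LSKCD201+ and BM-LSKCD201+ (0.242, 0.202 and 0.159), and the block changed no call of a member.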

Additional observations from a re-analysis of the deposited data

How the results depend on the processing

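Of 1251 values of members under alternatives, 1198 kept their direction and their side of the thresholds, 18 reversed, 15 lost and 20 gained a call. With the adjusted p alone, 4 members were called on OP9 against gelatin, 6 between the D5 populations and 4 between D5-LSKCD201- and mESC. A filter at a mean of 1 FPKM left 1 member called on OP9, since Csf2rb was no longer tested. Quantile normalization left 1 member called on OP9 and 1 between D5-LSKCD201- and mESC, Kit in both, since Csf2rb (0.88) and Csf2ra (0.85) lost their calls. Averaging the closest pair of libraries, which was chosen after seeing the data, left 0 called on OP9, with Kit at an adjusted p of 0.0657 by limma and Csf2rb untested. Leaving out 1 library gave 0 to 2 members called on OP9, 2 to 3 between the D5 populations and 1 to 2 between D5-LSKCD201- and mESC, and in the other 8 comparisons the count moved by at most 1. Epor became a call in BM-LSKCD201+ against mESC with a pseudocount of 0.1 (-1.22), after quantile normalization (-1.33) and without BM-LSKCD201+ library 3 or mESC library 3 (-1.01 and -1.02). With the pseudocount of 0.1, Il3ra in D5-LSKCD201- against mESC (1.13) and Lifr on OP9 (1.11) also became calls.

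The values that reversed were all small. Csf3r on OP9 was -0.11 after quantile normalization, and -0.03 and -0.06 without 3D+OP9 library 3 or 3D+0.1% gelatin library 3. Quantile normalization also gave -0.01 for Il6st in D5-LSKCD201- against mESC, 0.27 for Csf1r (adjusted p = 0.0339) and 0.22 for Il3ra in D5-LSKCD201+ against BM-LSKCD201+, and 0.04 for Il3ra in FL-LSKCD201+ against BM-LSKCD201+. In D5-LSKCD201+ against FL-LSKCD201+, Kit was 0.06 without FL-LSKCD201+ library 1 (range without 1 library -0.32 to 0.06), and Il3ra was -0.05, -0.01 and -0.04 without D5-LSKCD201+ library 1 or 3 or FL-LSKCD201+ library 2 and -0.02 with the closest pair averaged. Csf1r in D5-LSKCD201+ against BM-LSKCD201+ was 0, 0.07 and 0.03 without D5-LSKCD201+ library 1 or BM-LSKCD201+ library 2 or 3 and 0.05 with the closest pair averaged (lowest without 1 library -0.14), and in D5-LSKCD201- against BM-LSKCD201+ it was 0.02 without BM-LSKCD201+ library 2 and 0.01 with the closest pair averaged (lowest without 1 library -0.18). The cause was not tested. Quantile normalization moved the median difference of all genes from -0.23 to -0.02 in D5-LSKCD201+ against BM-LSKCD201+ and from 0.23 to -0.06 in BM-LSKCD201+ against mESC, the widest shifts.

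With the replicate number as a block, the number of members called was the same in all 11 comparisons, for example 4 in FL-LSKCD201+ against BM-LSKCD201+ and 3 between the D5 populations. Depth is unknown, so members under 1 FPKM in a group (such as Csf2rb and Csf3r in D5-LSKCD201-, Csf1r outside fetal liver and Lifr in the groups from the animal) have no counting error beyond the spread of 3 libraries.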
